A study of Homo sapiens with 6 samples.

Results

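SYK, 5 SRC family kinases and 4 genes that act directly on them or after them were examined in SW403 cells. The 10 genes are SYK, SRC, YES1, FYN, LYN, LCK, CSK, CBL, PLCG1 and PLCG2, taken by symbol from the 26490 rows of a deposited count table. The set was selected on the counts of these same 6 libraries: SYK leads it for its level and for a clear increase in knockdown. For that reason the differences of the 10 genes between the groups are given as a description, and nothing is supported with them. SW403 is an established human colon adenocarcinoma line. The control group holds 3 libraries of SW403 cells with normal IRS2 expression, labelled as wild type, and the knockdown group holds 3 libraries of SW403 cells with lowered IRS2. Both groups grew for 24 h in DMEM with 10% fetal bovine serum and no added treatment, and the labels number the 3 libraries of each group as biological replicates. The sample descriptions call the control libraries DMEM_NS and the knockdown libraries DMEM_IRS2KO, and they explain neither NS nor KO. How the knockdown was made, and whether it is 1 clone or a pool, is not given in the sources used here. The p-values measure the spread between these cultures only. The series asks about the role of IRS2, an adaptor of the insulin and IGF1 receptors, in brain metastasis of colorectal cancer.

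SYK and its relative ZAP70 are cytoplasmic tyrosine kinases. They bind through paired SH2 domains to ITAM motifs, short tyrosine-bearing stretches of immune receptor subunits, after SRC family kinases have phosphorylated those tyrosines. The active kinases then phosphorylate adaptors and phospholipase C gamma, which releases calcium from stores. SRC, YES1 and FYN are found in most tissues and act at adhesion sites and growth factor receptors, whereas LYN and LCK are best known from blood cells. CSK holds SRC family kinases inactive by phosphorylating their C-terminal tyrosine, and CBL is a ubiquitin ligase that marks active tyrosine kinases and their receptors for degradation. SYK is known above all from B cells, mast cells and platelets, and it is also made in epithelial cells.

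Library totals ran from 11816973 to 12585013 counts in control and from 14329348 to 18114656 in knockdown, so every knockdown library was deeper. IRS2, the targeted gene, was at 33.2 ± 1.42 counts-per-million (CPM) in the control libraries against 12.4 ± 0.535 CPM with the knockdown (mean ± SD of 3), a 2.62-fold fall (adjusted p = 3.12e-11, edgeR's quasi-likelihood test). Of 12 colon epithelial markers, KRT8, KRT18, EPCAM and CDX2 were well detected, while CDH1, KRT20, CDX1, CDH17, GPA33 and LGALS4 had at most 11 counts in any library, and KRT20 and CDX1 had none. EPCAM was lower in knockdown (log2 fold change -0.21, edgeR adjusted p = 0.00581) and CDX2 was higher (0.14, edgeR adjusted p = 0.0148). Of 16 blood cell markers, 14 had at most 15 counts in any library. All 16 genes summed to 5.42 to 6.83 CPM in control and 6.84 to 7.89 CPM in knockdown. HBA1 was the highest of them in every library, with 20 to 70 counts (log2 fold change 0.43, edgeR adjusted p = 0.135). PTPRC had 1 count in all, MS4A1, HBB and PPBP had none, and LAPTM5 was higher in knockdown (log2 fold change 0.78, edgeR adjusted p = 0.0376). The 11 stromal and endothelial markers summed to 11.9 to 31.8 CPM in control and 8.91 to 11.5 CPM in knockdown. The high end was control replicate 1, which held 193 counts of COL1A1 and 86 of COL1A2. COL1A1 (log2 fold change -1.15, edgeR adjusted p = 0.00290) and COL3A1 (-1.71, edgeR adjusted p = 0.0136) were lower in knockdown. COL3A1 had few counts, 34, 19 and 5 in control and 6, 3 and 14 in knockdown, and its groups overlapped. The other tested genes of this list did not pass: PDGFRB (-0.18, edgeR adjusted p = 0.609) and ACTA2 (-0.11, edgeR adjusted p = 0.724). The part of these markers in the results was not tested. Without control replicate 1, 5 of the 10 genes passed the test, beside 4593 of all 14068 tested genes, and SYK had a log2 fold change of 0.76. That fit cannot show the part of the markers. COL1A1 in control replicates 2 and 3 (5.73 and 5.67 CPM) still exceeded all knockdown libraries (3.63 to 4.26 CPM).

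The lead gene of the set lies on chromosome 9 (GRCh37, 93564069 to 93660831, plus strand), and its canonical transcript has 14 exons and 4973 nt. RefSeq lists 3 start sites for it. The sequence shown is the stretch of 250 bases before the most upstream of them, chr9:90801350-90801599 on the plus strand of GRCh38.p14. SYK was taken because it showed the largest difference of the 10 genes. Which of the listed starts is used in these cells was not tested. Capitals mark CG dinucleotides.
SYK: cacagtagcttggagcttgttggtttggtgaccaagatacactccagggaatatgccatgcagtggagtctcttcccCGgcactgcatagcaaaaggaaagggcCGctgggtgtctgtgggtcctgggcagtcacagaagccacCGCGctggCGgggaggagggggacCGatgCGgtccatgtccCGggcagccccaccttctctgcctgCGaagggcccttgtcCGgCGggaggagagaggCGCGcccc
The stretch holds 13 CG dinucleotides, and 46.6% of the 35116 RefSeq stretches of the same length hold at least as many. Its G and C content is 64%, against a median of 58%. Of 5 promoter motifs searched on both strands, none was found in these letters: the GC box GGGCGG (in 42.6% of stretches), the CCAAT box CCAAT (32.0%), the TATA box TATAAA (10.7%), the E-box CACGTG (6.34%) and the CRE TGACGTCA (1.65%). No promoter stretch is printed for the other 9 genes.

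SYK was at 230.0, 228.9 and 228.7 CPM in the control libraries and at 376.6, 381.1 and 378.7 CPM in the knockdown libraries. All 3 knockdown values lay far above all 3 control values. The log2 fold change was 0.76 ± 0.03 (SE), a 1.69-fold higher level in knockdown after TMM scaling, which corrects library totals for composition. Of the 3532 tested genes whose counts averaged 1000 or more, 5 had a larger increase. The spread of SYK between libraries was small. Its coefficient of variation was 0.291% in control and 0.591% in knockdown, below the 1.88% and 1.27% that counting error alone gives for its counts, so the SD understates the error of these means.

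ZAP70, the other kinase of the SYK family and best known from T cells, was abundant in these cells too. Its levels were 210.7, 201.7 and 203.3 CPM in control and 243.8, 242.1 and 239.6 CPM in knockdown, with no overlap between groups. The log2 fold change was 0.27 ± 0.03 (SE), and the adjusted p was 2.10e-06 in edgeR's quasi-likelihood test. Per kilobase of canonical transcript, ZAP70 exceeded SYK in every library: 84.8 ± 1.97 against 46.1 ± 0.134 CPM per kilobase in control, and 99.9 ± 0.883 against 76.2 ± 0.450 in knockdown (SD, n = 3 each). SYK made up 35.2 ± 0.465% of the summed SYK and ZAP70 level in control and 43.3 ± 0.301% in knockdown (SD, n = 3 each). The sum itself was 131 ± 2.10 and 176 ± 0.836 CPM per kilobase (SD, n = 3 each). The order of ZAP70 and SYK, the shares and the sum rest on 1 canonical transcript per gene, 2421 nt for ZAP70 and 4973 nt for SYK. The longest annotated transcripts have 3273 nt for ZAP70 and 4990 nt for SYK. With these lengths ZAP70 still lay above SYK per kilobase in every control library, but below SYK in every knockdown library. SYK then made up the larger part of the sum in knockdown. In plain CPM, SYK lay above ZAP70 in every library. Both kinases lay above every SRC family gene per kilobase in every library, while the ITAM subunits to which they bind in immune cells were near 0. Of 14 ITAM subunits and ITAM-type receptors, HCST, a signalling subunit without an ITAM that was put in the same list, was the 1 gene with enough counts for a test. TYROBP, CD3D, CD247 and CLEC4E had no count in any library, and the other 9 had at most 8.

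**Figure D1:**
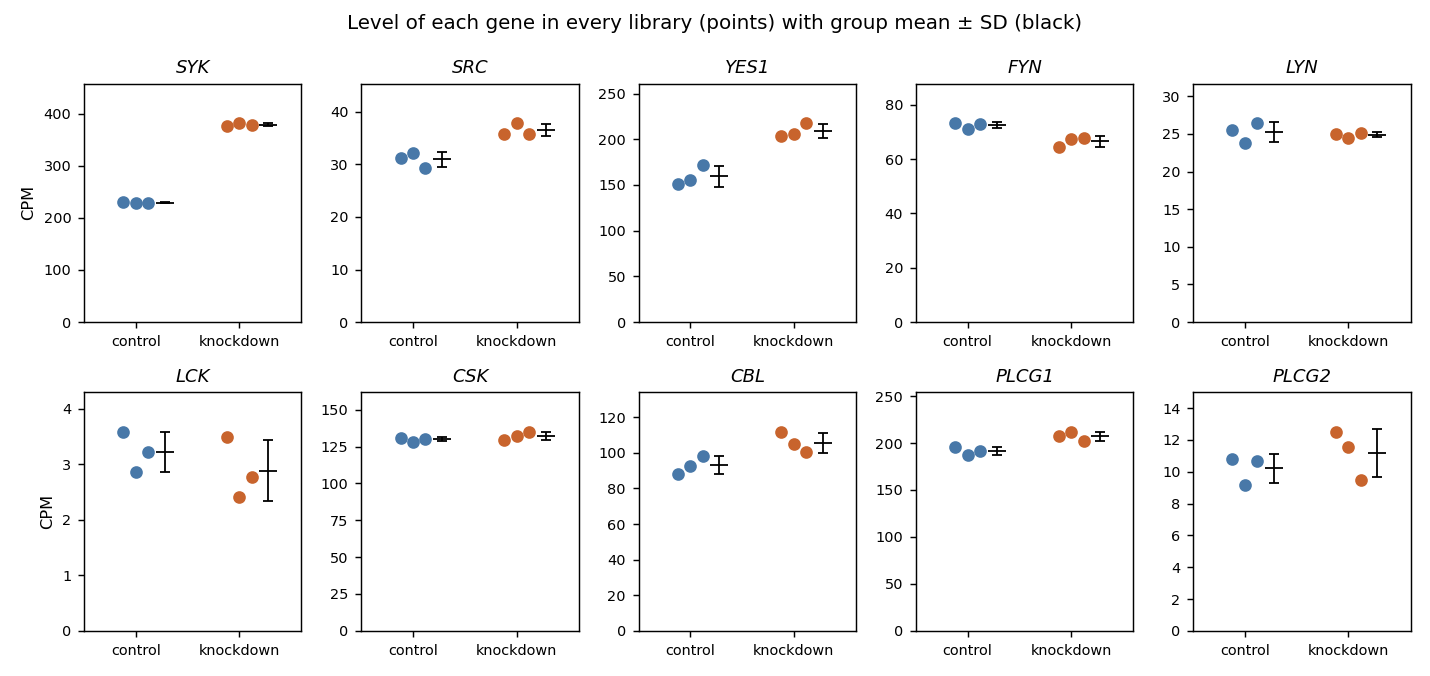
Level of each of the 10 genes in CPM (vertical axes from 0, scaled per gene) in the 3 control and 3 knockdown libraries, 1 point per library, with the group mean ± SD in black. SYK sits near 229 CPM in control and 379 CPM in knockdown, and the points of LYN, LCK, CSK and PLCG2 overlap between groups.

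YES1, one of the broadly expressed SRC family kinases, lies on chromosome 18 (721588 to 812547, minus strand). It was at 150.7, 155.5 and 172.2 CPM in control and at 203.7, 205.7 and 217.4 CPM in knockdown. The highest control library stayed below the lowest knockdown library, and the log2 fold change was 0.42 ± 0.04 (SE). SRC itself, on chromosome 20 (35973088 to 36034453, plus strand), was at 31.2, 32.2 and 29.4 CPM in control and at 35.8, 37.8 and 35.8 CPM in knockdown. Its groups did not overlap either, and its log2 fold change was 0.27 ± 0.06 (SE). YES1 has a pseudogene, YES1P1, with which reads could be shared, and the handling of such reads is not given in the sources used here.

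FYN, the third broadly expressed kinase, on chromosome 6 (111981535 to 112194655, minus strand), had lower values in knockdown. It was at 73.2, 71.3 and 73.0 CPM in control and at 64.3, 67.5 and 67.9 CPM in knockdown. The groups did not overlap, but the log2 fold change of -0.09 ± 0.04 (SE) did not pass the threshold, an adjusted p under 0.05. It passed with library size alone as the scaling (-0.12) and after removal of the length and GC trend (-0.11).

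LYN and LCK, the kinases best known from blood cells, showed overlapping groups. LYN, on chromosome 8 (56792394 to 56926728, plus strand), was at 25.5, 23.8 and 26.4 CPM in control and at 25.0, 24.5 and 25.2 CPM in knockdown. The log2 fold change was 0.01 ± 0.06 (SE), with a sign that depended on the scaling. LCK, on chromosome 1 (32716845 to 32751766, plus strand), was at 3.58, 2.87 and 3.22 CPM in control and at 3.49, 2.40 and 2.76 CPM in knockdown, from 36 to 50 counts a library. Counting error for LCK was 15.9% of the control level, and its log2 fold change of -0.14 ± 0.20 (SE) did not pass the threshold. That value ran from -0.02 without knockdown replicate 2 to -0.28 without knockdown replicate 1, and was -0.06 without control replicate 1 and -0.21 without control replicate 2.

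**Figure D2:**
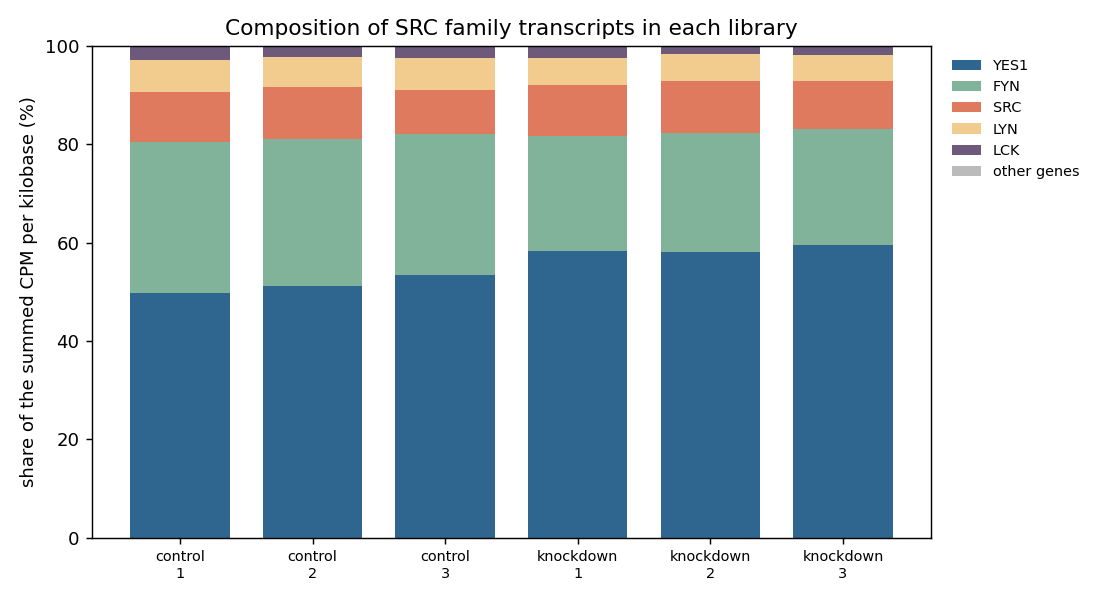
Share of each kinase in the summed level of the SRC family genes (percent of CPM per kilobase) in each library. YES1 takes 49.7 to 53.4% in control and 58.1 to 59.5% in knockdown, and the FYN block is narrower in all 3 knockdown libraries.

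Division of each level by transcript length allowed the family to be read as a mixture. YES1 made up 49.7%, 51.3% and 53.4% of the family sum in the control libraries and 58.4%, 58.1% and 59.5% in the knockdown libraries. The share of FYN was 29.7 ± 0.970% in control and 23.7 ± 0.414% in knockdown, and that of LYN was 6.39 ± 0.225% and 5.48 ± 0.116% (SD, n = 3 each). None of these shares overlapped between groups. A share can fall because the rest of the sum rises: LYN itself was at 4.30 ± 0.225 and 4.24 ± 0.0597 CPM per kilobase, with overlapping groups. SRC, for which the family is named, contributed 9.93 ± 0.800% and 10.2 ± 0.429%, and LCK 2.29 ± 0.272% and 1.79 ± 0.370% (SD, n = 3 each), both with overlapping groups. The family sum was 67.2 ± 2.46 CPM per kilobase in control and 77.3 ± 1.81 in knockdown (SD, n = 3 each). The smallest p that an exact two-sided permutation test can give for 3 libraries against 3 is 0.1, and since the genes were chosen on this contrast the shares are given as a description, with no test.

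CSK, the kinase that restrains the SRC family, lies on chromosome 15 (75074421 to 75095538, plus strand). It was at 130.9, 128.3 and 130.3 CPM in control and at 129.7, 131.8 and 134.7 CPM in knockdown. The groups overlapped, and the log2 fold change was 0.06 ± 0.04 (SE). Against the family sum, the CSK level was 0.705 ± 0.0243 in control and 0.623 ± 0.00303 in knockdown (ratio of CPM per kilobase, SD, n = 3 each) and the groups did not overlap. MATK, which encodes the CSK-homologous kinase with the same target site, did fall. It was at 5.32, 3.98 and 5.42 CPM in control and at 1.12, 2.11 and 1.55 CPM in knockdown, a log2 fold change of -1.57 ± 0.22 (SE; edgeR adjusted p = 1.58e-05). MATK is a low gene, with 16 to 67 counts a library, and per kilobase CSK exceeded it in every library.

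CBL, the ubiquitin ligase, lies on chromosome 11 (119077008 to 119184636, plus strand) and has the longest canonical transcript of the 10 genes, 11168 nt. It was at 88.4, 92.7 and 98.2 CPM in control and at 111.6, 105.1 and 100.2 CPM in knockdown. The highest control and the lowest knockdown library lay close together without overlap, and the log2 fold change was 0.21 ± 0.05 (SE). Its spread between libraries, 5.28% in control and 5.41% in knockdown, exceeded the counting error of 2.96% and 2.40%.

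PLCG1 and PLCG2 encode the gamma forms of phospholipase C, which cleave a membrane lipid into a calcium-releasing messenger and an activator of protein kinase C. PLCG1, on chromosome 20 (39765600 to 39825441, plus strand), was at 195.5, 186.9 and 191.2 CPM in control and at 207.8, 211.6 and 201.9 CPM in knockdown. These groups did not overlap, and the log2 fold change was 0.15 ± 0.03 (SE). PLCG2, on chromosome 16 (81812884 to 81996290, plus strand) and known as the form of B cells and platelets, was at 10.8, 9.15 and 10.7 CPM in control and at 12.5, 11.5 and 9.50 CPM in knockdown. Its groups overlapped, and its log2 fold change of 0.15 ± 0.11 (SE) had a wider error than that of PLCG1. It ran from 0.08 without knockdown replicate 1 to 0.26 without knockdown replicate 3, and was 0.09 without control replicate 2. PLCG1 made up 95.8 ± 0.285% of the summed level of both genes in control and 95.8 ± 0.493% in knockdown (SD, n = 3 each). An antisense gene, PLCG1-AS1, shares 145 bases with the PLCG1 exons and had 34 to 59 counts a library, against 2259 or more for PLCG1. For PLCG2, 47.8% of the exon bases are also annotated to a long noncoding RNA on the same strand, so its counts may hold reads of that transcript.

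In all, 5 of the 10 genes were past the threshold, and all 5 (SYK, YES1, SRC, CBL and PLCG1) were higher in knockdown. Over all 13832 tested genes, 38.5% passed in either direction and 19.3% were higher. The groups did not overlap for 6 of the 10 genes, against 48.4% of all tested genes. The median log2 fold change of the 10 genes was 0.15, and that of all tested genes was 0.00. All 10 genes had enough counts to pass the filter. These counts describe genes that were chosen with this contrast known.

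**Figure D3:**
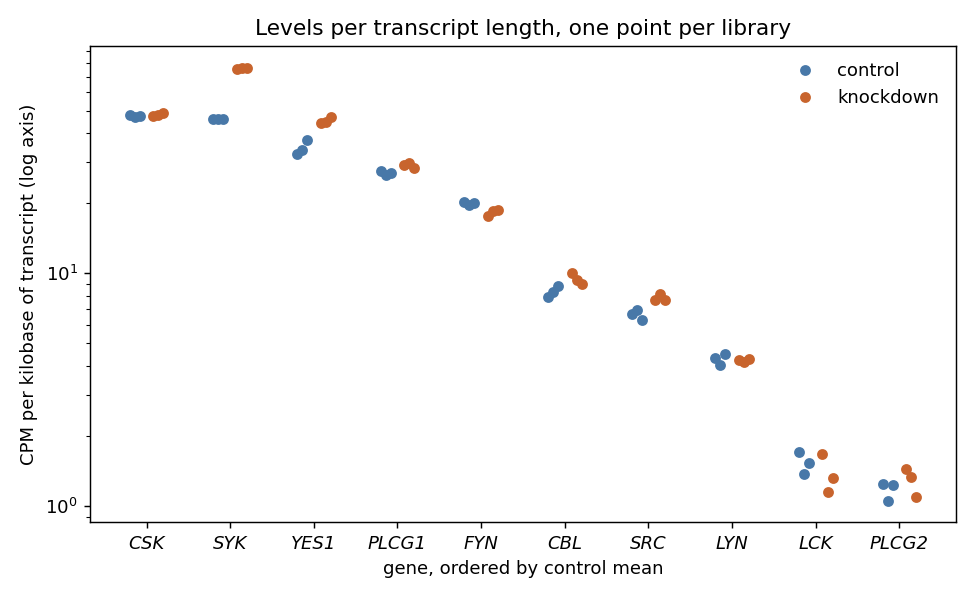
Level of each gene in CPM per kilobase of its canonical transcript (log axis), 1 point per library, ordered by the control mean. SYK lies just below CSK in control (46.1 against 47.3) and well above it in knockdown (76.2 against 48.2).

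Levels per kilobase spanned a wide range, and the order of the genes was nearly the same in both groups. In control the order was CSK (47.3 ± 0.499), SYK (46.1 ± 0.134), YES1 (34.6 ± 2.45), PLCG1 (27.0 ± 0.603), FYN (20.0 ± 0.296), CBL (8.33 ± 0.440), SRC (6.66 ± 0.314), LYN (4.30 ± 0.225), LCK (1.54 ± 0.170) and PLCG2 (1.18 ± 0.106), all in CPM per kilobase (SD, n = 3 each). No pair of neighbours in this order had overlapping values. In knockdown SYK came first (76.2 ± 0.450 CPM per kilobase, SD, n = 3), followed by CSK and the same sequence of genes, and the LCK and PLCG2 values overlapped. The small gap between CSK and SYK in control rests on the choice of 1 annotated transcript for each gene.

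The rest of the pathway was read from 7 lists of non-member genes. Of their 113 genes, 80 were tested, of which 30 were higher and 10 lower in knockdown, where 19.3% of all tested genes were higher and 19.2% lower. With library size alone as the scaling, the list counts became 22 higher and 12 lower, and those of all tested genes went from 2676 higher and 2653 lower to 2206 higher and 3198 lower. The list of other kinases of the families had 3 tested genes of 8: ZAP70 was higher, MATK was lower, and PTK6 (BRK), a kinase of gut and skin epithelium that was named after its values were seen, had a log2 fold change of 0.00 ± 0.11 (SE).

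Among 12 phosphatases and adaptors that set SRC family activity, 11 were tested. Of these, 4 were higher, 1 was lower and 6 did not pass, with a median log2 fold change of 0.00. The share past the threshold was 45.5%, against 38.5% of all tested genes. PTPN6 (SHP-1), a phosphatase that dampens SYK and SRC family signalling in blood cells, was at 18.1 ± 1.63 CPM in control libraries and rose to 24.1 ± 1.06 CPM (mean ± SD of 3), by 0.44 ± 0.08 on the log2 scale (SE; edgeR adjusted p = 0.000136). PTPRE, a receptor-type phosphatase that can activate SRC, rose by 0.28 ± 0.07 on the log2 scale (SE; edgeR adjusted p = 0.00209). PTPN11 (SHP-2), which acts with growth factor receptors and their docking proteins, had 307 ± 9.75 CPM in control libraries and fell to 266 ± 7.13 CPM (mean ± SD of 3), a log2 fold change of -0.18 ± 0.03 (SE; edgeR adjusted p = 0.000334). PAG1, the membrane adaptor that recruits CSK, was named after its values were seen and had a log2 fold change of 0.00 ± 0.11 (SE).

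Of the 9 CBL relatives and CBL-binding proteins, 7 were tested, of which 4 were higher and none lower, with a median of 0.12. That is 57.1% past the threshold, against 38.5% of all tested genes. SH3KBP1 (CIN85), an adaptor that couples CBL to receptor endocytosis, showed the largest of these increases. It was at 169.2, 174.7 and 174.5 CPM in control and at 235.0, 235.4 and 249.6 CPM in knockdown, with a log2 fold change of 0.51 ± 0.04 (SE; edgeR adjusted p = 2.42e-09). UBASH3B (STS-1), a phosphatase that binds CBL and acts on SYK, rose by 0.34 ± 0.05 on the log2 scale (SE; edgeR adjusted p = 4.94e-05). CBLB, the closest relative of CBL and likewise named afterwards, had a log2 fold change of -0.42 ± 0.18 (SE) that did not pass (edgeR adjusted p = 0.0765), and CBLC had 1 count in all.

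Of the 20 SYK adaptors and TEC kinases, 13 were tested, of which 5 were higher, 1 was lower and 7 did not pass, with a median of 0.12. Past the threshold were 46.2%, against 38.5% of all tested genes. PIK3AP1 (BCAP), which brings phosphoinositide 3-kinase to SYK-type receptors, was at 19.0 ± 0.553 CPM in control libraries and rose to 26.6 ± 1.10 CPM (mean ± SD of 3), by 0.52 ± 0.07 on the log2 scale (SE; edgeR adjusted p = 7.03e-06). MALT1 rose by 0.33 ± 0.05 (SE; edgeR adjusted p = 1.75e-05) and CARD9 by 0.24 ± 0.04 (SE; edgeR adjusted p = 0.000209). These partners act after SYK in the route to NF-kB. BLNK, the SYK adaptor of B cells, had no count, and LCP2, that of T cells and platelets, had at most 3 counts a library.

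**Figure D4:**
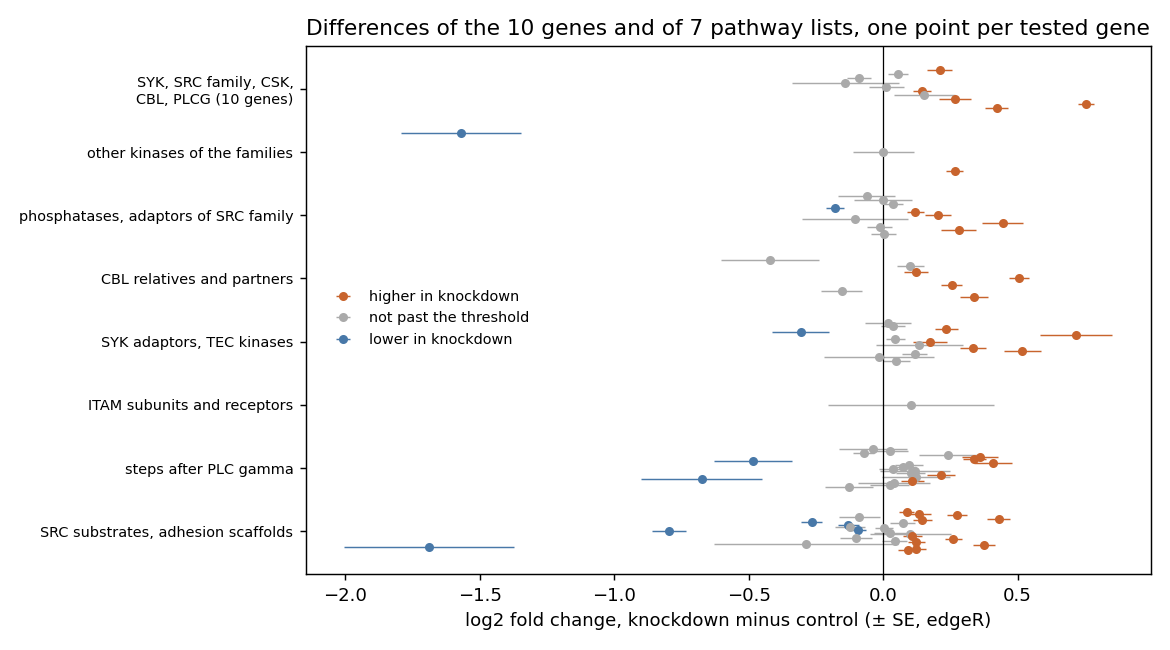
Log2 fold change, knockdown minus control, with its SE from edgeR for each tested gene of the 10-gene set and of 7 pathway lists. Orange points were higher, blue points lower and grey points not past the threshold. SYK is the rightmost point of its row at 0.76, and MATK the leftmost of the second row at -1.57.

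Downstream of phospholipase C gamma, 20 of 24 genes were tested, of which 5 were higher, 2 were lower and 13 did not pass, with a median of 0.08. The share past the threshold, 35%, was near the 38.5% of all tested genes. In DESeq2, and in edgeR without control replicate 3, 4 genes of this list passed. The increases included a pair of receptors for the calcium-releasing messenger. ITPR3 was at 155.6, 164.5 and 161.0 CPM in control and at 205.9, 206.7 and 183.8 CPM in knockdown (log2 fold change 0.34 ± 0.04 SE, edgeR adjusted p = 3.45e-06), and ITPR2 rose by 0.36 ± 0.07 (SE; edgeR adjusted p = 0.000232). NFATC2, a calcium-regulated transcription factor, rose by 0.41 ± 0.07 (SE; edgeR adjusted p = 0.000118). NFATC1, named after its values were seen, went the other way (-0.48 ± 0.14 SE, edgeR adjusted p = 0.0119).

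The list of SRC substrates and adhesion scaffolds had 25 tested genes of 26. Of these, 11 were higher, 5 lower and 9 not past the threshold, with a median of 0.07. The share past the threshold was 64%, against 38.5% of all tested genes. With library size alone the split was 6 higher and 6 lower, a scaling under which all tested genes also had fewer higher and more lower calls. NEDD9, an adhesion scaffold phosphorylated by SRC family kinases, was at 36.9, 38.7 and 37.9 CPM in control and at 22.5, 22.0 and 19.7 CPM in knockdown (log2 fold change -0.80 ± 0.06 SE, edgeR adjusted p = 1.28e-08). BCAR1 (p130Cas), its close relative, was named after its values were seen and moved in the opposite direction (0.27 ± 0.04 SE, edgeR adjusted p = 5.03e-06). TRAF3IP2, a low gene also named afterwards, had the largest decrease of the list (-1.69 ± 0.31 SE, edgeR adjusted p = 0.000290). CDCP1, a surface protein phosphorylated by SRC family kinases, rose by 0.43 ± 0.04 (SE; edgeR adjusted p = 2.20e-07), and TNS3, a focal adhesion protein, by 0.38 ± 0.04 (SE; edgeR adjusted p = 6.95e-07).

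The genes whose pattern over the 6 libraries was most like that of SYK were sought among the 10449 tested genes whose counts averaged 100 or more. By Pearson's r of log2 CPM they were MPZL2, CHN2, SLC7A8, RUNX2 and FGF19, with r between 0.99942 and 0.99971. Since the libraries form 2 separate groups, r mostly reflects a clean difference between them, and 1688 genes had an r above 0.9. Their log2 fold changes ran from 0.47 for RUNX2 to 1.32 for FGF19. After each group mean was subtracted, the nearest were SDAD1, ARPC1B, RPP25L, TRAP1 and TIMM9, with r from 0.994 to 0.999. For SYK that remaining spread is smaller than counting error.

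Genes next to the 10 genes were looked at after the values were seen. Of the 60 nearest tested protein-coding genes, 3 on each side of a member, 10 were higher and 14 lower, which is 40% against 38.5% of all tested genes. Around SYK, AUH (0.44 ± 0.10 SE, edgeR adjusted p = 0.00240) and ROR2 (0.22 ± 0.05 SE, edgeR adjusted p = 0.00253) were higher, and SEMA4D, GADD45G, DIRAS2 and NFIL3 did not pass. These are not all close: AUH lies 315 kilobases from SYK, ROR2 665 and SEMA4D 1451. Around YES1, ENOSF1 (0.16 ± 0.05 SE, edgeR adjusted p = 0.0243) and NDC80 (0.10 ± 0.04 SE, edgeR adjusted p = 0.0496) were higher and COLEC12 was lower (-2.07 ± 0.29 SE, edgeR adjusted p = 1.33e-05). ENOSF1 lies 8.93 kilobases from YES1, COLEC12 221 and NDC80 1759.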

How the data were processed

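RNA-seq libraries of SW403 cells were made from 1000 ng of total RNA, per the labels' protocols. The first deposited table holds whole-number counts per gene symbol. The second holds a normalized signal, which the authors deposited without naming a unit. In it the counts of each library are divided by 1 constant (0.847 to 1.25), and genes with a total under 10 are left out. STAR 2.6.1a, Salmon, DESeq2 and the build hg19 are named in the submitters' processing notes, without roles. Annotation and strand setting are not given in the sources used here.

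Counts were tested with edgeR 4.0.16 in R 4.3.3 (TMM factors, filterByExpr, quasi-likelihood F-test, group as the only term), with Benjamini-Hochberg adjustment over all 13832 tested genes and a threshold of 0.05. The SE of a log2 fold change was taken from its F statistic (size of the change over root F). CPM uses library totals, without TMM factors. Lengths come from 1 canonical transcript per gene in the GENCODE v44lift37 annotation, which 96.3% of the tested genes had. GRCh37 positions are whole gene spans in the same annotation. Promoters come from RefSeq (GRCh38.p14), where 7 of the 10 genes have an entry. Simulated counts for this comparison (13832 genes) gave back 91% of changes of 1 log2 unit and 83% of 0.5, and 6.45% of the calls were false. Only 200 genes were changed in the simulation, equally up and down, whereas 5329 were called in the data. These rates therefore need not hold for the data.

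The 10 genes and the lists were chosen with earlier results of these data known. Named genes are the 10, IRS2, up to 3 genes of smallest p past the threshold in each list, and the 5 most like SYK by each of 2 measures. Others are said to be named after their values were seen. Some genes that this rule or the lists cover are not reported here. No file column was left unused. Alternatives were DESeq2 size factors, library size alone or upper-quartile factors; no low-count filter or a minimum mean of 50 counts; DESeq2 1.42.0; limma 3.58.1 voom; thinned counts; limma on log2 of the deposited values with a pseudocount of 1 or 10; removal of the length and GC trend; a replicate block; a threshold of 0.01; and each library left out. Amplified reads are not independent molecules, so counting errors cover counting only.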

Additional observations from a re-analysis of the deposited data

How the results depend on the processing

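SYK kept its direction and its call in all 19 alternative fits, with log2 fold changes from 0.72 to 0.77, and 5 or 6 of the 10 genes passed in every fit, FYN being the sixth. For the 9 other genes, 161 of 170 values kept direction and side of the threshold. LYN, never past the threshold, changed sign with library size alone (-0.0198), upper-quartile factors (-0.00985), a minimum mean of 50 counts (-0.00210), the length and GC trend removed (-0.00584, or -0.00587 with the replicate block), and without control replicate 2 (-0.0226) or knockdown replicate 3 (-0.00164), with -0.0226 to 0.0453 when 1 library was left out. TIMM9 changed sign with that trend removed (0.0208, or 0.0197 with the replicate block) and without knockdown replicate 1 (0.0213), with -0.0935 to 0.0213 when 1 library was left out. The calls of all genes ranged from 3604 of 15250 tested (DESeq2) to 5722 of 19882 (no filter), against 5329 of 13832. DESeq2 called 1654 lower genes against 2653. The balance of 2676 higher to 2653 lower became 2206 to 3198 with library size alone and 2354 to 3012 with upper-quartile factors. Leaving out 1 library gave 4319 to 5256. The list of steps after phospholipase C gamma had 4 genes past the threshold in DESeq2 and without control replicate 3, against 7, and the other kinases had 1 against 2 when MATK was filtered out. The difference in CSK over the family sum was -0.0571 without division by length against -0.0818, and -0.0952 to -0.0713 when 1 library was left out. The difference in the PLCG1 share ranged from -0.299 to 0.192 percentage points when 1 library was left out. The cause of these changes was not tested. Same-numbered libraries did not deviate together (correlations 0.04, -0.01 and -0.10). A replicate block gave 0.75 for SYK, 5 of the 10 genes, 34 of the list genes against 40, and 4862 genes in all, and changed no call of the 10. Counting error was 15.9% of the control level for LCK and 8.94% for PLCG2, whose knockdown libraries differed by more (13.7%) than their counting error (7.41%).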
